A study of Homo sapiens with 9 samples.

Results

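The 5 human acrocentric chromosomes, 13, 14, 15, 21 and 22, were described by their contacts with each other and with the other autosomes in Hi-C libraries of IMR90 cells. Every 40 kb bin of these chromosomes that held values was taken, which gave 8287 bins with values in at least 1 library and 8239 with values in all 5, of 69959 bins with values on all chromosomes. All comparisons used the 65957 autosomal bins with values in all 5 libraries. IMR90 is a human diploid fibroblast line from lung, used here at passages 20 to 25. All 5 libraries came from cells that carried the ER:HRAS(G12V) vector, in which an oncogenic RAS is switched on by 4-hydroxytamoxifen (4OHT). The 3 growing libraries had no 4OHT, and growing replicate 3 also carried an MSCV Vector. The 2 RIS libraries (RAS-induced senescence) came from cells given 100 nM 4OHT for 6 days. The cells that form the control therefore hold the inducible RAS as well, and the drug was given to the RIS cells alone. The study calls its replicates biological, and the labels do not say which libraries came from separate cultures, so p-values measure the spread between these libraries.

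In an acrocentric chromosome the centromere lies close to one end. The short arms carry the ribosomal RNA genes, and those arms are drawn together around the nucleoli, where these genes are transcribed. The human reference assembly holds almost nothing of the short arms, so the acrocentric chromosomes are visible here through their long arms. The start of each long arm is rich in segmental duplications, stretches copied from one acrocentric chromosome to another, which makes it hard to place a sequenced read on one chromosome. Hi-C ligates and sequences pairs of DNA fragments that lay close in the nucleus, and iterative correction (ICE) then balances the matrix so that every bin has the same total.

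Because the copies decide how contacts between the starts of these long arms can be read, 3 pairs of 120-base windows are shown from bins that stand among those with the most contacts. Bin pairs with more contacts were passed over until both bins shared sequence with each other, so these windows are copies by choice. All windows are from GRCh37, the build of the deposited bins (hg19), and capitals mark the positions at which the copies differ. The first pair joins chromosome 14 (chr14:19529750-19529869, plus strand) and chromosome 22 (chr22:16311472-16311591, minus strand).
chromosome 14 copy, plus strand: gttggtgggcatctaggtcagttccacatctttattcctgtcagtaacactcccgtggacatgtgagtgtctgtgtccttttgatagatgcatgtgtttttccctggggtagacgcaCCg
chromosome 22 copy, minus strand: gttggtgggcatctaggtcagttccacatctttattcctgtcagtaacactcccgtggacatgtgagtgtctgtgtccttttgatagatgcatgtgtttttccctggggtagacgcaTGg
Neither window lies in an annotated gene. The nearest protein-coding genes were POTEM on chromosome 14, 23496 bases away, and POTEH on chromosome 22, 23535 bases away, both members of the POTE family of ankyrin-repeat genes that has spread through pericentromeric duplications. The surrounding alignment ran over 5683 bases at 99.6% identity. Contacts between the bins of these windows numbered 18, 85 and 14 in growing cells (replicates 1, 2 and 3) and 14 and 19 in RIS.

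The second pair joins the very start of the long arm of chromosome 13 (chr13:19036339-19036458) and chromosome 21 (chr21:14462706-14462825), both on the plus strand and both outside annotated genes.
chromosome 13 copy, plus strand: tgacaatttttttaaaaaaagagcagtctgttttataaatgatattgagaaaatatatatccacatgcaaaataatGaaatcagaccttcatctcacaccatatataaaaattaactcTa
chromosome 21 copy, plus strand: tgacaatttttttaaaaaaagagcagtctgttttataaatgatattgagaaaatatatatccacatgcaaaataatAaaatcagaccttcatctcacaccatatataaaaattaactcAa
The surrounding alignment ran over 2117 bases at 99.4% identity. The bins of these windows had 59, 114 and 63 contacts in growing cells and 21 and 43 in RIS, the fourth highest count, summed over libraries, of all bin pairs between acrocentric chromosomes. The third pair shows a less alike copy, on chromosome 14 (chr14:20238717-20238836, in an intron of the olfactory receptor gene OR4N2) and chromosome 15 (chr15:22355316-22355435, in an intron of OR4M2-OT1), both on the plus strand.
chromosome 14 copy, plus strand: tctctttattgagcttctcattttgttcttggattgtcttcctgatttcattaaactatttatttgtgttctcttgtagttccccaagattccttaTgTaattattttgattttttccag
chromosome 15 copy, plus strand: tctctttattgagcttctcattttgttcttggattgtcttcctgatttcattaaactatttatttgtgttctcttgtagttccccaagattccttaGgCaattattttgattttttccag
Here the alignment covered 758 bases at 93.1% identity, and the bins had 37, 30 and 44 contacts in growing cells and 14 and 33 in RIS. Summed over the 5 libraries, this count was the highest of any bin pair between acrocentric chromosomes in which both bins had at most 20% shared sequence.

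Shared sequence was measured for every bin as the percentage of its 64-base stretches that also occurred on another autosome. The median was 1.52% for bins of the acrocentric chromosomes and 1.59% for all autosomal bins. In all, 119 acrocentric bins exceeded 20%, and 78 of these lay within the first 5 Mb of a long arm. The mean share over the first 5 Mb was 7.39% on chromosome 13, 13.8% on chromosome 14, 7.36% on chromosome 15, 10.4% on chromosome 21 and 11.4% on chromosome 22. Results on the starts of the long arms are therefore given both over all bins and over bins with at most 20% shared sequence.

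Between 146395764 and 171390597 contacts between autosomal bins could be recovered from the balanced values in growing cells, and 104391017 and 142798267 in RIS. Of these, 10326809, 12097227 and 11590997 were inter-chromosomal in growing cells, and 9840217 and 13122170 in RIS. The 10 pairs of acrocentric chromosomes held 237482, 285188 and 268320 contacts in growing cells and 214123 and 273029 in RIS, over 26040379 pairs of bins. That is about 1 contact per 100 bin pairs (0.822 to 1.10 by library), so levels were read over chromosomes and over blocks of 5 Mb, never from single bins. The assembled short-arm bins of chromosome 21, pooled, were the exception. By the study's count of read pairs, growing replicate 3 and RIS replicate 2 held many duplicate reads and the other 3 libraries few, so differences were also taken within each of these classes. The share of dangling ends, fragments that were cut but not joined, was higher in both RIS libraries than in all growing ones, and its part in the results cannot be told apart from that of RIS.

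The acrocentric chromosomes sent a larger share of their contacts to other autosomes than the remaining 17 autosomes did as a whole, and this share was higher in RIS. Of the balanced contact of acrocentric bins with all autosomes, 11.2%, 11.4% and 10.7% was inter-chromosomal in growing cells and 14.1% and 13.5% in RIS. The RIS libraries lay above all growing libraries, with a difference of 2.68 percentage points (11.1% ± 0.370 SD, n = 3, against 13.8% ± 0.389, n = 2; exact two-sided permutation test, p = 0.1, the smallest that 3 against 2 libraries allow). For the other autosomes the share was 8.42%, 8.62% and 8.14% in growing cells and 10.8% and 10.6% in RIS. Chromosomes 16 to 20, which are also small, had a higher mean share in growing cells, 11.7%, and a lower one in RIS, 13.1%. On recovered contacts their mean share was the higher one in both groups, 12.1% against 10.5% in growing cells and 14.1% against 13.5% in RIS. Chromosome 21, the smallest of the 5, had the highest share of them in balanced contact, 15.6%, 16.2% and 14.9% in growing cells and 20.9% and 19.9% in RIS. Chromosome 13, a gene-poor chromosome, moved from 9.53%, 9.80% and 9.24% to 13.2% and 13.0%. Chromosome 22, the most gene-dense of the 5, stood apart from the rest of them, with 14.0%, 14.2% and 13.3% in growing cells and 14.1% and 12.9% in RIS. Its groups overlapped, with a difference of -0.30 percentage points (exact permutation test, p = 0.6). Among chromosomes 16 to 20, chromosome 19 was alike, with 12.5%, 12.7% and 12.1% in growing cells, 12.5% and 11.6% in RIS, and overlapping groups. On recovered contacts, which are not balanced, chromosome 22 had the highest share of the 5 in growing cells, 16.3%, 16.9% and 15.6%, against 15.0%, 15.9% and 14.3% for chromosome 21.

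Contacts among acrocentric chromosomes were compared as levels, a level being the log2 of the mean balanced contact per pair of bins over the mean of all 231 autosome pairs in the same library. Over all bins, acrocentric pairs had about 2-fold the contact of an average autosome pair in growing cells and less in RIS. Their level was 0.99, 0.99 and 0.99 in growing cells and 0.89 and 0.82 in RIS, which is 1.99-fold and 1.81-fold the mean of all pairs. The RIS values were below every growing value, with a log2 difference of -0.14 (exact permutation test, p = 0.1), which was -0.10 within the libraries with few duplicates and -0.17 within those with many. Over bins with at most 20% shared sequence the level was 0.83, 0.84 and 0.84 in growing cells and 0.75 and 0.67 in RIS, a log2 difference of -0.13. The contacts of acrocentric chromosomes with the 17 other autosomes (85 pairs) had levels of 0.21, 0.21 and 0.19 in growing cells and 0.20 and 0.18 in RIS, groups that overlapped (log2 difference -0.01, exact permutation test, p = 0.3). The excess of the former over the latter was above 0 in 5 of 5 libraries (exact sign-flip test over libraries, p = 0.0625, the smallest that 5 libraries allow). It was 0.79, 0.79 and 0.80 in growing cells and 0.69 and 0.64 in RIS, a log2 difference of -0.12 (exact permutation test, p = 0.1). Over bins with at most 20% shared sequence, contacts with other autosomes had mean levels of 0.19 in growing cells and 0.18 in RIS. The excess was thus smaller in both groups over those bins. Of all inter-chromosomal contact of acrocentric bins, 15.9%, 15.9% and 16.0% fell on other acrocentric chromosomes in growing cells and 15.0% and 14.6% in RIS, while these targets make up 9.87% of the bin pairs.

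Levels of this kind divide out the overall rise of inter-chromosomal contact. With the libraries set to the same total contact instead, the mean over all autosome pairs was higher in RIS by a log2 of 0.34, that of acrocentric pairs by 0.21 and that of acrocentric with other autosomes by 0.33. The lower level of acrocentric pairs in RIS is thus relative to the mean of all autosome pairs, and per total contact the 10 pairs together were higher. All levels and calls that follow are relative in the same way unless total contact is named. Pairs among chromosomes 16 to 20 differed by 0.07 per total contact, with overlapping groups, less than the acrocentric pairs.

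Pairs among chromosomes 16 to 20, which hold a similar number of bins (8357), also had high levels in growing cells. Their levels were 1.08, 1.09 and 1.06 in growing cells and 0.85 and 0.75 in RIS. The level of acrocentric pairs minus that of these pairs was -0.08, -0.10 and -0.06 in growing cells and 0.05 and 0.07 in RIS, a change of 0.14 (exact permutation test, p = 0.1). Over bins with at most 20% shared sequence it was below 0 in all 5 libraries, at -0.26, -0.26 and -0.24 in growing cells and -0.11 and -0.08 in RIS. Small chromosomes have more inter-chromosomal contact in total, so levels were also taken over the contact expected from the inter-chromosomal totals of both chromosomes. On that scale the acrocentric pairs had 0.33, 0.32 and 0.35 in growing cells and 0.28 and 0.27 in RIS (difference -0.06), and their contacts with other autosomes lay at -0.05, -0.05 and -0.06 against -0.04 and -0.04. Pairs of chromosomes 16 to 20 moved the other way, from 0.30, 0.30 and 0.31 to 0.40 and 0.39. The order of both classes thus depends on this choice, in growing cells as well as in RIS.

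**Figure D1:**
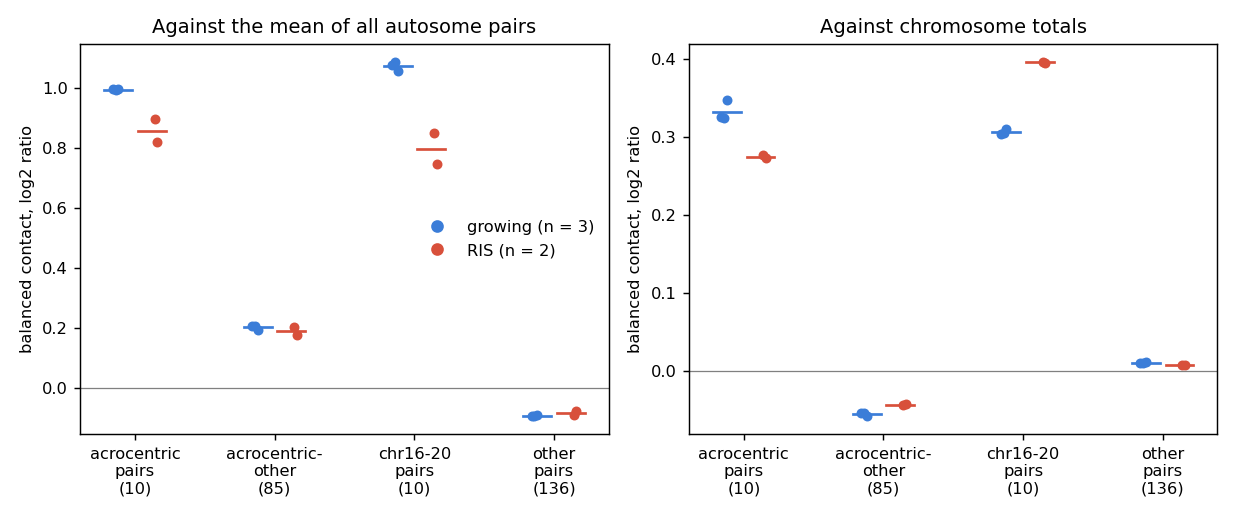
Each point is 1 library (growing, n = 3; RIS, n = 2) and each short line a group mean. The left panel gives the log2 ratio of balanced contact to the mean of all autosome pairs and the right panel the log2 ratio to the contact expected from chromosome totals, for 4 classes of chromosome pairs (number of pairs in brackets); acrocentric pairs are lower in RIS than in growing cells in both panels, while pairs of chromosomes 16 to 20 are lower in RIS in the left panel and higher in the right one.

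The 10 acrocentric pairs differed widely among themselves. The pair 21-22 had the highest level of all 231 autosome pairs in growing cells, 2.21, 2.17 and 2.14, and rank 3 in RIS with 1.76 and 1.58. The pair 13-21 went from 1.65, 1.65 and 1.70 to 1.86 and 1.83 and from rank 6 to rank 2. The pair 14-22 went from 1.68, 1.58 and 1.67 to 1.22 and 1.13. Over all bins, these 3 pairs, all with a small acrocentric chromosome, were also the first 3 of the 231 in growing cells over the contact expected from chromosome totals, in the order 14-22, 21-22 and 13-21. The level of 14-22 depended on the bins and on balancing: all bins gave means of 1.64 in growing cells and 1.18 in RIS, bins with at most 20% shared sequence 0.82 and 0.28, and recovered contacts over all bins 0.78 and 0.21. The other 2 pairs had growing means of 2.01 (21-22) and 1.21 (13-21) without those bins. At the other end, 13-14 had 0.51, 0.52 and 0.52 in growing cells and 0.65 and 0.60 in RIS. The pair 13-22, which joins the gene-poorest and the gene-richest of the 5, had 0.68, 0.67 and 0.72 in growing cells and 0.19 and 0.13 in RIS, and fell from rank 36 to rank 92.

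Relative to the mean of all autosome pairs, all 4 pairs with chromosome 22 fell in RIS, while 13-21 rose. In a limma fit over all 231 pairs, 2 acrocentric pairs were called higher and 7 lower in RIS at an adjusted p of at most 5%, where 39.8% of all autosome pairs were called higher and 47.6% lower. Without growing replicate 2, 1 acrocentric pair was called higher, and without RIS replicate 2, 3 were. The median log2 difference of the 10 pairs was -0.19, against -0.00461 over all 231. Every pair among chromosomes 16 to 20 was called lower in the same fit, with log2 differences from -0.63 (18-19) to -0.14 (16-18). The falls were -0.53 ± 0.03 for 13-22 (SE, limma adjusted p = 2.92e-51), -0.50 ± 0.06 for 21-22, -0.46 ± 0.06 for 14-22 and -0.40 ± 0.05 for 15-22. The smaller falls were -0.20 ± 0.03 for 13-15, -0.19 ± 0.04 for 14-15 and -0.17 ± 0.05 for 15-21 (limma adjusted p = 0.00251). The rises were 0.18 ± 0.06 for 13-21 (limma adjusted p = 0.00291) and 0.11 ± 0.04 for 13-14 (0.00233). The rise of 13-21 was 0.30 and 0.35 without bins over 20% and over 10% shared sequence, and 0.37 without bins within 2 Mb of a centromere gap. The pair 14-21, with levels of 1.22, 1.26 and 1.23 in growing cells and 1.38 and 1.31 in RIS, missed the threshold (0.11 ± 0.06, limma adjusted p = 0.0659). It was called higher, which made 3 pairs, with the class of duplicate reads as a block, without bins within 2 Mb of a centromere gap, and without bins over 20% or 10% shared sequence. These small p-values rest on a spread pooled over all 231 pairs. No pair's groups overlapped, which held for 93.9% of all autosome pairs and so says nothing particular about these. With the replicate number as a block, 13-14 and 15-21 were not called (limma adjusted p = 0.0869 and 0.12).

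The sizes depended on the scale. Over the contact expected from chromosome totals, 13-14 differed by -0.00113 and 15-22 by 0.11, both with the sign turned. On that scale 13-21 differed by 0.015 and 14-22 by -0.078, with overlapping groups (exact permutation tests, p = 0.8 and 0.3), and 13-22 and 21-22 by -0.26 and -0.16. With libraries at the same total contact, the pairs with chromosome 22 differed by -0.19 (13-22), -0.12 (14-22), -0.052 (15-22) and -0.16 (21-22), and the groups of the last 2 overlapped (exact permutation tests, p = 0.6 and 0.3). The 3 smaller falls turned to 0.15 for 13-15, 0.15 for 14-15 and 0.17 for 15-21, and 13-21 was higher by 0.52. The lower contact of 13-22 kept its direction without overlap on both scales.

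**Figure D2:**
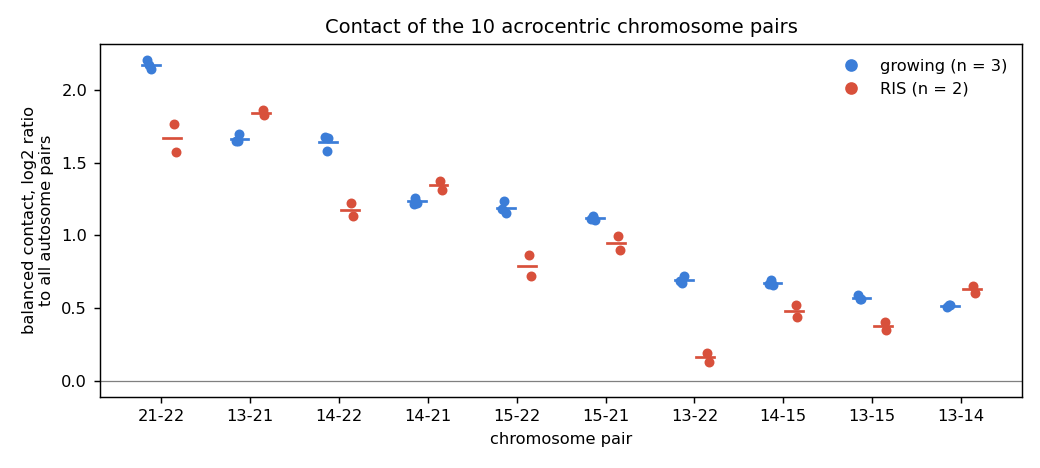
Levels of the 10 acrocentric chromosome pairs, ordered by their growing mean, as the log2 ratio of balanced contact to the mean of all autosome pairs; each point is 1 library (growing, n = 3; RIS, n = 2) and each line a group mean. The 4 pairs with chromosome 22 have the largest falls, and in 13-21, 14-21 and 13-14 both RIS points lie above the growing points.

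Relative to the mean of all autosome pairs, the same division by chromosome was present in the contacts with the 17 other autosomes. Of the 85 such pairs, 30 were called higher and 44 lower in the limma fit, near the 39.8% and 47.6% of all autosome pairs. Over the contact expected from chromosome totals, 28 of the 85 were called higher and 21 lower, where 64 and 66 of all 231 autosome pairs were. Chromosome 22 had 0 pairs called higher and 17 called lower (0 and 17 also at an unadjusted p under 0.05), with log2 differences from -0.58 to -0.14, and its level went from 0.46, 0.46 and 0.44 to 0.14 and 0.06. This was not particular to chromosome 22. Chromosomes 16, 17, 19 and 20 were likewise called lower with every other autosome outside the 5. With chromosome 1, for example, they differed by -0.10, -0.16, -0.27 and -0.14, and chromosome 22 by -0.26. Chromosome 15 had 15 pairs called lower and 0 higher (15 and 0 at an unadjusted p under 0.05), and went from 0.24, 0.22 and 0.21 to 0.14 and 0.10. Chromosome 13 had 13 pairs called higher and 4 lower, and went from -0.00230, 0.00640 and 0.00334 to 0.13 and 0.14. Chromosome 21 had 9 called higher and 4 lower, with levels of 0.64, 0.65 and 0.62 against 0.72 and 0.67, and chromosome 14 had 8 and 4, with 0.07, 0.08 and 0.07 against 0.09 and 0.09. The largest fall of chromosomes 13, 14, 15 and 21 was with chromosome 19, the most gene-dense autosome, at -0.60, -0.43, -0.29 and -0.40. The largest rise was with gene-poor chromosome 4 for chromosome 13 (0.42) and with chromosome 5 for chromosome 21 (0.31). Chromosome 22 reversed this order, with its smallest fall on chromosome 19 (-0.14) and its largest on chromosome 18 (-0.58). Per total contact, the contact with other autosomes was higher in RIS without overlap for chromosomes 13, 14, 15 and 21, by 0.48, 0.36, 0.24 and 0.40, and that of chromosome 22 differed by -0.012 with overlapping groups. The inter-chromosomal share of chromosome 15 was likewise higher, with means of 11.0% in growing cells and 12.8% in RIS.

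Contact was highest at the centromere side of the long arms, and relative to the mean of all autosome pairs this first step was lower in RIS. The long arms were cut into 5 Mb steps from their first bin. Over all bins, the first 5 Mb of the 5 long arms had a level among themselves of 4.95, 4.82 and 4.93 in growing cells and 4.54 and 4.44 in RIS, 29.9-fold and 22.5-fold the mean of autosome pairs. The log2 difference was -0.41 (exact permutation test, p = 0.1, and 0.117 after Benjamini-Hochberg adjustment over the 7 steps), and -0.34 and -0.49 within the libraries with few and with many duplicates. Per total contact it was -0.064 over all bins and 0.11 over bins with at most 20% shared sequence, with overlapping groups (exact permutation tests, p = 0.5 and 0.3). Over bins with at most 20% shared sequence the levels were 2.66, 2.78 and 2.73 against 2.54 and 2.43, 6.60-fold and 5.61-fold, with a log2 difference of -0.23. At most 10% shared sequence gave 2.06, 2.33 and 2.22 against 2.03 and 1.91. All these levels are of balanced contact, and on recovered contacts the folds over all bins were smaller in both groups. The level of the first step was thus lower without bins of much shared sequence, and over the 5 arms pooled still above that of every later step. Single arms could differ: in RIS, over bins with at most 20% shared sequence, the first block of chromosome 14 had a mean level of 1.10 with the other 4 chromosomes, below the 1.15 of its next block, and that of chromosome 21 had 1.39, below 1.54.

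The next step, 5 to 10 Mb, had 1.52, 1.73 and 1.58 in growing cells and 1.49 and 1.43 in RIS. From 10 to 15 Mb the level was 1.14, 1.16 and 1.12 against 0.89 and 0.71. The steps from 15 to 35 Mb had growing means of 1.31, 1.31, 0.90 and 1.13 and RIS means of 0.92, 0.80, 0.58 and 0.69. In each of the 7 steps the RIS values were below every growing value (adjusted p from 0.117 to 0.2, exact permutation tests). Groups without overlap were common in these data (93.9% of autosome pairs), and in contact with other autosomes the RIS values were also below every growing value in 5 of these 7 steps. In contact with all bins of the other 4 acrocentric chromosomes, the first 5 Mb exceeded the rest of the long arm by 1.42, 1.35 and 1.40 on the log2 scale in growing cells and by 1.24 and 1.23 in RIS (difference -0.15, exact permutation test, p = 0.1). Over bins with at most 20% shared sequence this excess was 0.54, 0.56 and 0.53 against 0.51 and 0.49. Growing cells had no steady decline past 10 Mb, where the level went from 1.14 to 1.31 and back to 1.13.

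The starts of the acrocentric long arms were set against the 5 Mb next to the centromeres of the other autosomes, since centromere-flanking regions of all chromosomes can meet. Those flanks had a level among themselves of 1.63, 1.73 and 1.63 in growing cells and 1.41 and 1.35 in RIS. The acrocentric starts exceeded them by 3.32, 3.09 and 3.31 in growing cells and by 3.13 and 3.09 in RIS, above 0 in 5 of 5 libraries (exact sign-flip test, p = 0.0625). Over bins with at most 20% shared sequence the excess was 1.28, 1.28 and 1.36 in growing cells and 1.36 and 1.33 in RIS. This excess overlapped between growing cells and RIS (log2 difference 0.03, exact permutation test, p = 0.4), while the flanks of the other autosomes differed by -0.27 and the acrocentric starts by -0.23. Acrocentric starts with the flanks of other autosomes lay between, at 1.74, 1.84 and 1.71 against 1.52 and 1.46.

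The first 5 Mb of the single chromosomes showed which pairs made up this level. The start of chromosome 14, which holds POTEM, POTEG, a cluster of olfactory receptor genes with OR4K2, the DNA repair gene APEX1 and the matrix metalloprotease gene MMP14, met the start of chromosome 22, with POTEH, CCT8L2 and the interleukin 17 receptor gene IL17RA, at a level of 7.44, 7.20 and 7.45 in growing cells. In RIS this level was 6.98 and 6.81. Over bins with at most 20% shared sequence it was 3.03, 3.23 and 3.16 against 2.77 and 2.63, which is 8.80-fold in growing cells where all bins gave 165-fold. Recovered contacts over all bins numbered 2251, 3644 and 2815 in growing cells and 1386 and 2065 in RIS, over 11040 bin pairs. All autosome pairs held 0.502, 0.588 and 0.564 recovered contacts per 100 bin pairs in growing cells. The fold of the recovered contacts was thus well below the 165-fold of balanced contact. The starts of chromosome 13 (TUBA3C, TPTE2 and the connexin gene GJB2) and chromosome 21 (POTED and NRIP1) had 5.72, 5.58 and 5.78 against 5.22 and 5.28 over all bins. Over the bins with little shared sequence, this pair had 3.49, 3.45 and 3.51 against 3.22 and 3.25, the highest of the 10. Chromosome 15, whose start holds POTEB and GOLGA6L2, met chromosome 22 at 3.15, 3.21 and 3.05 against 2.50 and 2.20 and chromosome 14 at 3.13, 3.20 and 3.20 against 2.91 and 2.88 over those bins.

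In the fit over all 5 Mb block pairs, 0 of these 10 first-block pairs were called higher and 3 lower in RIS, where 13.5% of all tested block pairs were called higher and 13.4% lower. The pair 15-22 had a log2 difference of -0.58 (SE 0.15, limma adjusted p = 0.0047), 21-22 of -0.44 (SE 0.14, 0.0189) and 14-15 of -0.40 (SE 0.14, 0.0323). At an unadjusted p under 0.05, 0 were higher and 4 lower, where 52650 of all 137502 block pairs passed in either direction. On recovered contacts, limma-voom called 0 higher and 6 lower, where it called 14.2% of all block pairs higher and 17.5% lower. With bins over 20% shared sequence left out, 14-15 was not called (limma adjusted p = 0.0924) and 14-22 was (-0.46, limma adjusted p = 0.0108). Over all bins, the starts of 14 and 21 had 2.91, 3.11 and 2.86 against 3.17 and 3.01, and those of 13 and 15 had 2.25, 2.54 and 2.31 against 2.47 and 2.38, groups that overlapped in both pairs. Over bins with at most 20% shared sequence, 14-21 had 2.33, 2.49 and 2.49 against 2.72 and 2.55, higher in RIS without overlap. The starts of 15 and 21 were also higher there without overlap, by 0.28. Neither pair was called in the fit over those bins (limma adjusted p = 0.29 and 0.104).

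The assembled part of the short arm of chromosome 21, with TPTE, which encodes a testis protein related to phosphatases, held 34 bins with values in all libraries, the only short-arm bins of the 5 chromosomes. These 34 bins are fewer than the 50 asked of a block. Their level with the other acrocentric chromosomes was 3.80, 3.78 and 3.83 in growing cells and 3.66 and 3.67 in RIS. With other autosomes it was 2.25, 2.22 and 2.21 against 2.06 and 2.04. Over the 12 of these bins with at most 20% shared sequence the levels with acrocentric chromosomes were 3.79, 3.71 and 3.80 against 3.63 and 3.62.

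**Figure D3:**
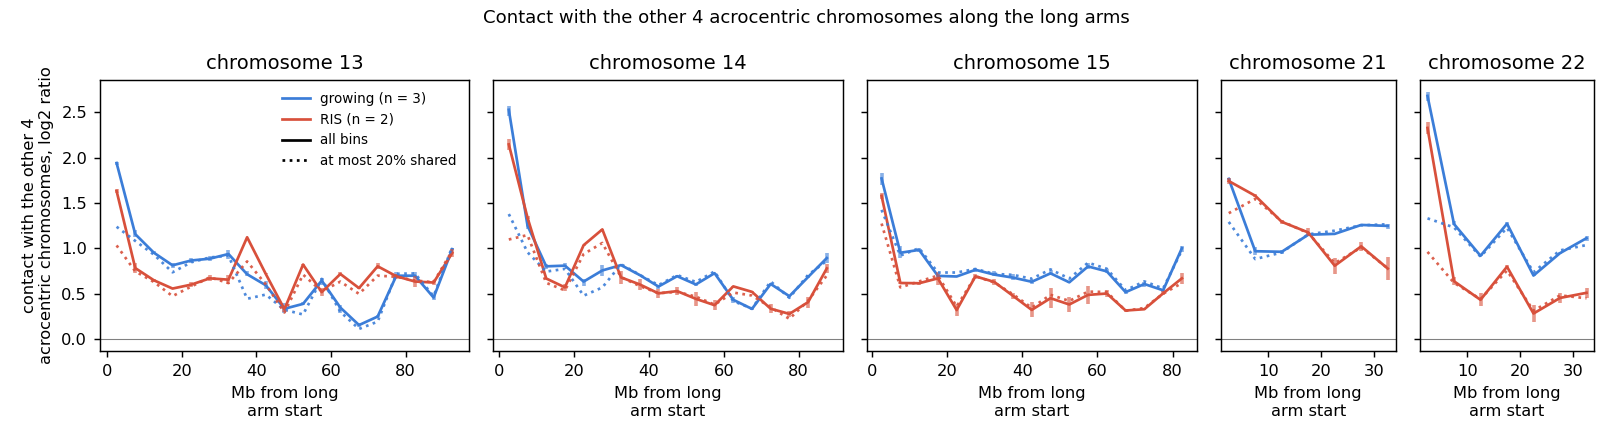
Level of each 5 Mb block of a long arm with the other 4 acrocentric chromosomes, against distance from the start of the long arm in Mb; lines are means of the growing (n = 3) and RIS (n = 2) libraries, vertical bars the range over libraries, and dotted lines the means over bins with at most 20% shared sequence. All 5 long arms are high in their first block, chromosome 22 is lower in RIS along its whole length, and chromosomes 13, 14 and 21 hold stretches that are higher in RIS.

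Single bin pairs with many contacts were a matter of the first few Mb. Of the 100 bin pairs with the most contacts between acrocentric chromosomes, 97 had both bins within 5 Mb of the start of an arm and 36 had more than 20% shared sequence in both. The highest count, summed over the 5 libraries, joined chr21:11160001-11200000, on the short arm, and chr22:17480001-17520000, with 78, 103 and 89 contacts in growing cells and 35 and 63 in RIS. Rank 2 joined chr14:19440001-19480000 and chr22:16320001-16360000, with 72, 111 and 83 contacts in growing cells and 30 and 70 in RIS. These bins shared 0% of their sampled stretches with each other, and the same held for ranks 5, 7 and 8. Bin pairs with over 20% shared sequence on both sides were 0.0203% of all acrocentric bin pairs and held 0.940%, 1.44% and 0.985% of the contacts in growing cells and 0.585% and 0.761% in RIS. Growing replicate 2 was the highest, and the RIS values were below every growing value. How many of these contacts were reads of one copy placed on the other was not tested.

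Relative to the mean of all autosome pairs, the direction of change in RIS differed with the gene density of the blocks. The 540 autosomal blocks of 5 Mb were cut into 3 classes of near equal size at 3.80 and 7.13 protein-coding genes per Mb, which put 21 of the 68 acrocentric blocks in the low, 19 in the middle and 28 in the high class. Chromosome 13 had 3.25 genes per Mb and 10 low blocks, and chromosome 22 had 12.7 genes per Mb and 7 high blocks of 7. Between low blocks of different acrocentric chromosomes the level was 0.84, 0.91 and 0.86 in growing cells and 1.63 and 1.58 in RIS, a log2 difference of 0.74. Between high blocks it was 1.59, 1.53 and 1.55 against 1.30 and 1.12, a difference of -0.35. Low with high blocks had the lowest levels, 0.38, 0.40 and 0.43 in growing cells and 0.14 and 0.14 in RIS. Growing acrocentric chromosomes thus had their highest contact between gene-dense blocks, and RIS acrocentric chromosomes between gene-poor blocks. Groups did not overlap in any of these classes (exact permutation tests, p = 0.1). The falls depended on this scale: per total contact, low with low blocks were higher in RIS by 1.08, low with high blocks by 0.080, and high with high blocks differed by -0.0055 with overlapping groups.

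Relative to the mean of all autosome pairs, pairs of the other 17 autosomes moved in the same direction between low, between high and between low and high blocks, by less. Their low blocks went from -0.23, -0.15 and -0.17 to 0.22 and 0.27 and their high blocks from 0.53, 0.49 and 0.47 to 0.36 and 0.23. On this scale, low with middle blocks moved in opposite directions, by -0.12 in acrocentric pairs and 0.18 in pairs of other autosomes. So did middle with middle blocks, by -0.10 and 0.094, in each case without overlap. Per total contact both were higher in RIS without overlap. Low with middle blocks were higher by 0.22 in acrocentric pairs and 0.52 in pairs of other autosomes, and middle with middle blocks by 0.24 and 0.44. Pairs of other autosomes were also higher per total contact between low blocks (0.77), low and high blocks (0.18) and high blocks (0.14), without overlap. The level between low blocks minus that between high blocks was -0.75, -0.62 and -0.69 in growing cells and 0.34 and 0.46 in RIS for acrocentric pairs, and -0.76, -0.64 and -0.64 against -0.14 and 0.03 for pairs of other autosomes. The difference between both kinds of pairs was near 0 in growing cells, 0.00719, 0.0101 and -0.04, and 0.48 and 0.43 in RIS (change 0.46, exact permutation test, p = 0.1). Leaving out the first 5 Mb of every acrocentric long arm gave 0.75, 0.83 and 0.78 against 1.58 and 1.53 between low blocks, a log2 difference of 0.76, against 0.74 with them. Between high blocks it gave 1.25, 1.23 and 1.21 in growing cells and 1.00 and 0.82 in RIS, where all bins gave means of 1.56 and 1.21. The difference near 0 between both kinds of pairs in growing cells was taken over all bins and depends on these first blocks.

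**Figure D4:**
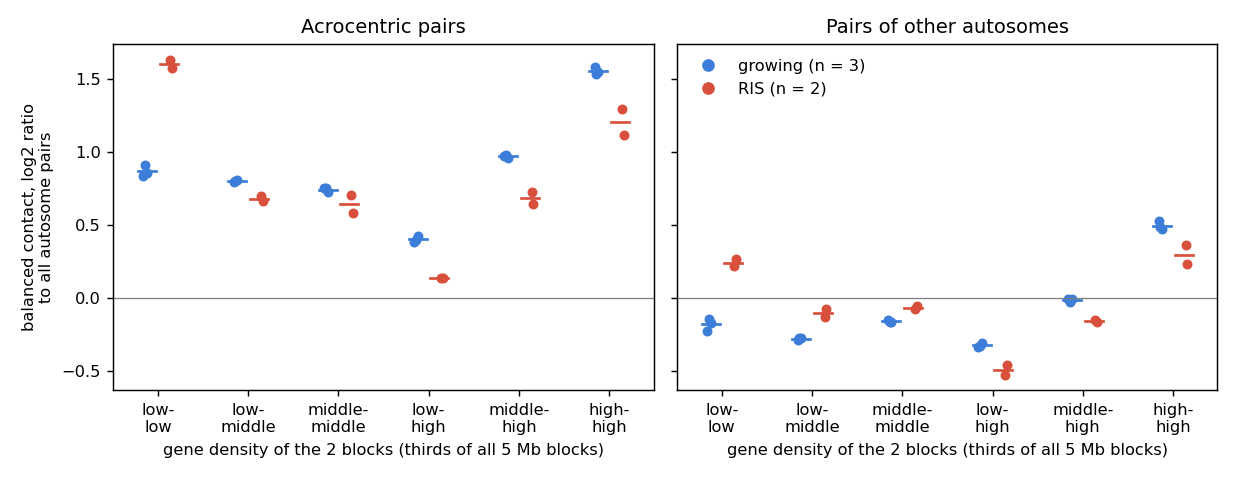
Level of contact, as the log2 ratio to all autosome pairs, between 5 Mb blocks on different chromosomes by the gene density of both blocks, for acrocentric pairs on the left and pairs of other autosomes on the right; each point is 1 library (growing, n = 3; RIS, n = 2) and each line a group mean. Contact between low-density blocks is higher in RIS in both panels, by 0.74 in acrocentric pairs and 0.42 in pairs of other autosomes, and contact between high-density blocks is lower.

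Single blocks followed the same order. In the contact of a block with the other 4 acrocentric chromosomes, 13 of the 21 low blocks were higher in RIS without overlap of the groups and 3 lower. For comparison, 38.1% of all 540 autosomal blocks were higher and 45.6% lower in their contact with the acrocentric chromosomes by the same rule. Of the 157 low blocks on other autosomes 69.4% were higher, so the low acrocentric blocks (61.9%) were not more often so. Of the 28 high blocks 1 was higher and 26 were lower, and of the 19 middle blocks 0 were higher and 16 lower. On other autosomes 37.4% of the middle and 74.3% of the high blocks were lower. Over the 68 blocks the change correlated with genes per Mb at a Pearson's r of -0.68 and with GC content at -0.81, given as a description, since neighbouring blocks share libraries and are not independent.

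The block with the largest difference upward was chr21:19320001-24320000, with 0.400 genes per Mb, at 0.93, 1.02 and 0.96 in growing cells and 1.60 and 1.56 in RIS. On chromosome 13 the largest was in chr13:89000001-94000000, from 0.24, 0.26 and 0.24 to 0.77 and 0.83. Both blocks were picked for their values among the 68. Their contact with other autosomes was also higher in RIS, by 0.57 and 0.59, where that with the acrocentric chromosomes was higher by 0.61 and 0.55. Over all bins, one of the first blocks stood apart from the rest: that of chromosome 21 had 1.77, 1.75 and 1.78 in growing cells and 1.77 and 1.71 in RIS (exact permutation test, p = 0.6), while the other 4 first blocks were lower in RIS without overlap, by log2 differences from -0.38 to -0.19. Over bins with at most 20% shared sequence these 4 differed by -0.37 to -0.15, and that of chromosome 21 was higher in RIS, at 1.28, 1.30 and 1.29 against 1.44 and 1.33.

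**Figure D5:**
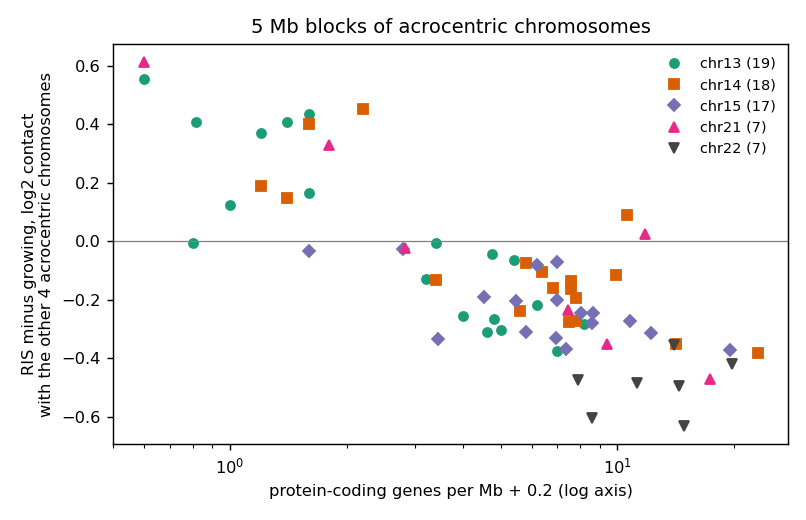
Change in RIS (RIS mean minus growing mean, log2) of the contact of each of 68 blocks of 5 Mb with the other 4 acrocentric chromosomes, against protein-coding genes per Mb plus 0.2 on a log axis; symbols give the chromosome, with its number of blocks in brackets. Blocks above 0 lie mostly on the left, on chromosomes 13, 14 and 21, and all 7 blocks of chromosome 22 lie below 0.

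Pairs of 5 Mb blocks were tested in 1 limma fit over all 137502 block pairs on different autosomes with enough contact, 1776 of them between acrocentric chromosomes. Of these 1776, 186 (10.5%) were called higher and 549 (30.9%) lower in RIS at an adjusted p of at most 5%, against 13.5% and 13.4% of all tested block pairs. The median log2 difference was -0.22, against -0.01 over all. On recovered contacts (limma-voom), 156 of the 186 and 530 of the 549 were called in the same direction, where 14.2% of all block pairs were called higher and 17.5% lower. Without bins over 20% shared sequence, 175 and 539 were. With RIS replicate 1 left out, the median log2 difference of the acrocentric block pairs was -0.17, against 0.0010 over all block pairs. With RIS replicate 2 left out it was -0.17, against 0.0019.

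The calls followed gene density and chromosome. Of 149 tested pairs of low blocks, 95 (63.8%) were called higher and 10 (6.71%) lower, where 40.8% of low-block pairs between other autosomes were called higher. Between acrocentric and other autosomes, 53.1% of low-block pairs were called higher. Of 500 pairs of a low and a high block, 42 were called higher and 227 (45.4%) lower, against 19.6% lower between other autosomes. Of 294 pairs of high blocks, 3 were called higher and 102 (34.7%) lower, against 19.8%. With chromosome 22 on one side, 5 of 427 block pairs were called higher and 240 (56.2%) lower. Between 13 and 21, 42 of 133 (31.6%) were called higher and 29 lower, and between 13 and 14, 73 of 342 were called higher and 70 lower, so both of these chromosome pairs held changes in both directions.

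The 5 largest rises all joined gene-poor blocks, 4 of them with chromosome 21. The block pair chr13:69000001-74000000 and chr21:19320001-24320000 had scaled contacts (balanced contact at equal inter-chromosomal totals) of 324, 354 and 322 in growing cells and 1100.1 and 1053 in RIS, a log2 difference of 1.69 (SE 0.13, limma adjusted p = 5.41e-09). The same chromosome 21 block rose 3.17-fold with chr13:89000001-94000000, from 275, 312 and 297 to 920 and 949, and 3.00-fold with chr13:84000001-89000000. The latter chromosome 13 block also rose 3.08-fold with chr21:24320001-29320000, which holds the amyloid precursor gene APP, and 3.01-fold with chr14:39000001-44000000, from 137, 148 and 137 to 403 and 419.

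Of the 5 largest falls, 2 joined a gene-poor block of chromosome 13 with a gene-dense block at the far end of chromosome 22. That block, chr22:46080001-51080000, holds BRD1, a gene of histone acetyltransferase complexes. It fell with chr13:84000001-89000000, from 61.3, 58.9 and 76.3 to 23.0 and 12.6, and with chr13:54000001-59000000, from 100.3, 93.4 and 99.8 to 20.6 and 43.5. The log2 differences were -1.87 (SE 0.27, limma adjusted p = 1.5e-05) and -1.73 (SE 0.22, limma adjusted p = 2.95e-06). Both rest on few recovered contacts: 40, 43 and 50 in growing cells and 17 and 13 in RIS, and 57, 66 and 69 against 14 and 33. The block chr13:84000001-89000000 thus stood among the largest rises with chromosomes 14 and 21 and among the largest falls with chromosome 22.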

How the data were processed

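Hi-C of IMR90 cells was analysed in 3 growing and 2 RIS libraries; capture Hi-C was not used. Per the labels and the study's methods, reads were checked with FastQC and aligned to hg19 with HiC-Pro, artefacts were removed with HiC-Pro and diffHic, duplicates with samtools, and replicates were not pooled. The authors deposited ICE-balanced contacts per pair of 40 kb bins, a signal in which every library has the same total and every bin the same sum. Balancing evens out bins of unequal coverage, and it also makes each bin's inter-chromosomal contact trade against its contact within the chromosome. The build was checked against the reference by chromosome lengths.

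Contacts were recovered by dividing out 1 factor per bin, which gave whole numbers within a tolerance of 0.05. Between 3376 and 3978 bins per library, whose counts were all multiples of a common number, were brought back to their smallest unit. Between 98.9% and 99.2% of inter-chromosomal bin pairs with contact held 1 contact. Depth is given as these recovered contacts.

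Long arms were taken from the end of the gap around each centromere (at least 50 bins). Levels were compared with exact two-sided permutation tests over libraries. Chromosome pairs and 5 Mb block pairs (at least 50 bins per block, mean scaled value of at least 10, pseudocount 0.5, loess with span 0.3 against mean contact) were tested on the log2 scale with limma 3.58.1 (R 4.3.3) and Benjamini-Hochberg adjustment over all autosomes; folds of block pairs are on the log2(value + pseudocount) scale. The fits were tested on simulated data. Shared sequence was found with Python 3.11.15 from stretches of 64 bases, of which 1 in 16 was kept by a hash of its sequence. Gene density came from GENCODE genes, and 59 of 60 landmark genes were found.

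The regions, gene list and tests were chosen with earlier results of these data known. Regions named are the 10 chromosome pairs, the first block of each long arm, and the 5 called block pairs with the largest rise and with the largest fall; single blocks and bin pairs were named after their values were seen. The other 3 of the largest falls, and 1 single block, are not reported here. Alternatives were other scalings, block and step lengths, filters, recovered contacts, blocks for replicate number and for the class of few or many duplicate reads, and leaving out each library.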

Additional observations from a re-analysis of the deposited data

How the results depend on the processing

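Of 130 alternatives of the main results, 106 kept their direction and, within the spread between replicates or 1.5 times for counts, their size, 21 moved and 3 reversed; of 175 for single chromosome pairs, gene density classes and the comparison with chromosomes 16 to 20, 168 kept their direction and 7 reversed. Where these carry permutation p-values, they cannot fall below 0.1, and counts of calls carry none, so only direction and size were compared. Acrocentric pairs (log2 difference -0.14) gave -0.058 over the contact expected from chromosome totals, -0.22 as the median over block pairs, and 0.21 without scaling to the inter-chromosomal mean. Acrocentric with other autosomes (-0.01) gave 0.012, -0.039 and 0.33 in that order, and the excess (-0.12) gave -0.070 over expected contact and -0.18 as a median. Acrocentric pairs against pairs of chromosomes 16 to 20 reversed to -0.15 over expected contact. There, 13-14 gave -0.00113 and 15-22 gave 0.11, and without scaling 13-15, 14-15 and 15-21 gave 0.15, 0.15 and 0.17, and low with high gene density 0.080. The first 5 Mb (-0.41) gave -0.064 without scaling, -0.20 without the first 1 Mb, -0.57 on recovered contacts, -0.23 and -0.24 without bins over 20% or 10% shared sequence, and -0.49 within libraries with many duplicates. The excess of the first 5 Mb over the rest of the arm in contact with the other acrocentric chromosomes (-0.15) gave -0.068 with 10 Mb steps, -0.086 without the first 1 Mb, -0.20 on recovered contacts, and -0.041 and -0.035 without shared sequence. The unscaled and shared-sequence alternatives were chosen after seeing the data, and causes were not tested, except that 10 Mb blocks leave fewer pairs to call (74 higher and 197 lower).

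Leaving out each library gave -0.17 to -0.10 for acrocentric pairs, -0.03 to -0.000689 with other autosomes, -0.15 to -0.10 for the excess, 2.41 to 2.96 percentage points for the inter-chromosomal share, -0.46 to -0.36 for the first 5 Mb and -0.17 to -0.14 for its excess over the rest of the arm. It gave 1 to 3 chromosome pairs called higher (1 without growing replicate 2) and 7 lower, and 142 to 160 block pairs called higher and 331 to 550 lower (331 without RIS replicate 1). With 1 RIS library left, it is assumed to vary like the growing ones. The groups share only replicate numbers, which no label ties to a pairing. Deviations of same-numbered libraries correlated at 0.03 and 0.01 over block pairs and at 0.40 and -0.15 over chromosome pairs, and with 2 RIS libraries these are not separate checks. With it as a block, 1 acrocentric pair was called higher and 6 lower, and 194 and 520 block pairs. With 3 against 2 libraries, no single comparison can pass 0.05 by permutation, and single bin pairs hold too few contacts for levels below blocks.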
